A study of Mus musculus with 4 samples.

Results

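The genes described here are 41 members of the p53 network: p53 and its relatives, the inhibitors and damage-activated kinases that act on p53, and target genes that act in growth arrest, apoptosis and DNA repair. They were chosen by symbol from a list written with earlier results of these data known, though no measured value entered the rule, and all 41 were found among the 37310 genes of the table. mRNA-seq was performed on mouse embryonic stem cells (mESCs), 2 libraries being wild-type and 2 labelled Bmal1-/-, and the comparison asks how the transcriptome differs when Bmal1, the partner of Clock in the core circadian activator, has been mutated. Both groups were of the JM8 line, of strain C57BL6/N, grown in 2i + LIF medium, which holds the cytokine LIF, 1 µM PD0325901 (a Mek inhibitor) and 3 µM CHIR99021 (a Gsk3 inhibitor). The labels name no DNA-damaging agent. The mutation was made with CRISPR/Cas9 in clonally derived cells compared with their parental line, so the effect of the mutation and that of clonal derivation cannot be told apart.

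p53, encoded by Trp53 in the mouse, is a transcription factor that is held at low level by the ubiquitin ligase Mdm2 and is stabilised when the kinases Atm and Atr, acting with Chek2 and Chek1, respond to damaged DNA. Stabilised p53 binds response elements built from paired decamers and activates genes that stop the cell cycle, such as Cdkn1a, genes that permeabilise mitochondria, such as Bax and Bbc3, and its own inhibitor Mdm2. mESCs are known for abundant Trp53 mRNA and for a short G1 phase. These libraries measure mRNA and not p53 protein or its modification.

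The libraries held between 21504265 and 23329034 reads on genes. A normalised value is the read count divided by a scaling factor of the library, and the value of 3 reads lay between 2.82 and 3.19. Arntl, the mouse symbol of Bmal1, was at 678 and 733 in wild-type and at 556 and 590 in the libraries labelled Bmal1-/-, so its mRNA was lower (log2 fold change -0.30, limma adjusted p = 0.0011) but not absent, and mRNA level alone does not check the genotype. The naive pluripotency markers were abundant under both labels, with summed values of 139380 and 144145 in wild-type and 137903 and 138565 in Bmal1-/-, though 10 of 11 tested passed (4 higher and 6 lower, from -0.95 to 0.36 in log2 fold change). Markers of two-cell-like cells, a rare state of mESC cultures, differed between labels: 7 of 12 listed genes were tested, and all 7 were higher past 2-fold. The summed value of the 9 listed genes found was 157 and 173 in wild-type and 2102 and 2014 in Bmal1-/-. Of 6 primitive endoderm markers tested, 4 were higher, 2 of them past 2-fold, and 1 was lower, also past 2-fold. Log2 fold changes of the 6 ran from -2.41 to 1.44, so the set did not move as one. The summed list value was 788 and 762 in wild-type and 1174 and 1112 in Bmal1-/-. Of 4 neural markers tested, 2 were lower past 2-fold, and the summed list value was 3829 and 3560 in wild-type and 2187 and 2052 in Bmal1-/-. The fibroblast markers Dcn and Lum were at 0 in all libraries, and 8 of 12 fibroblast markers had at most 3 reads in every library. Of the 4 fibroblast markers tested, 2 were higher, 1 of them past 2-fold, and none was lower. The list's summed value was 171 and 190 in wild-type and 350 and 360 in Bmal1-/-. The part of these cell states in the differences of the p53 network was not tested, and in bulk RNA fewer cells of a type and less RNA per cell cannot be told apart.

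Short promoter sequences are shown for 5 members whose mRNA is described below, because they hold the sequence classes at issue: the E-box CACGTG, to which Bmal1 and Clock bind, and the p53 decamer. A decamer here is an exact match to RRRCWWGYYY, where R is A or G, W is A or T and Y is C or T. Each is the 250 bases before an annotated RefSeq transcription start (GRCm38.p6), 5′ to 3′ on the strand of the gene, with both motifs in capitals. The windows are Cdkn1a at chr17:29090729-29090978 (+), Bax at chr7:45466899-45467148 (-), Bbc3 at chr7:16310181-16310430 (+), Sesn1 at chr10:41887189-41887438 (+) and Trp53 at chr11:69580109-69580358 (+).
Cdkn1a: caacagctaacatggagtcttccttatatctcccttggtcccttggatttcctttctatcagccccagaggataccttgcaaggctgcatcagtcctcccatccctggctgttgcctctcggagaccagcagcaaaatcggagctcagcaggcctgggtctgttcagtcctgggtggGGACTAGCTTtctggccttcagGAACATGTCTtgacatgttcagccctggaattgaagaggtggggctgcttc
Bax: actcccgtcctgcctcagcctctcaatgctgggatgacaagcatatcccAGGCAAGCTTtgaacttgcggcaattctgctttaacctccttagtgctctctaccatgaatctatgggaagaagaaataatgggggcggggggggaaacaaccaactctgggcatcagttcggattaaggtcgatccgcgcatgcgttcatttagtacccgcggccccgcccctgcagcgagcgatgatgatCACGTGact
Bbc3: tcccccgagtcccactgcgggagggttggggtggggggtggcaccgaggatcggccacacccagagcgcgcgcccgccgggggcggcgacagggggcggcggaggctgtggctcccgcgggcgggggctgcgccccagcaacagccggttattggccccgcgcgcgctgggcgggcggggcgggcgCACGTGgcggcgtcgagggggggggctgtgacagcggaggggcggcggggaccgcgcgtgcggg
Sesn1: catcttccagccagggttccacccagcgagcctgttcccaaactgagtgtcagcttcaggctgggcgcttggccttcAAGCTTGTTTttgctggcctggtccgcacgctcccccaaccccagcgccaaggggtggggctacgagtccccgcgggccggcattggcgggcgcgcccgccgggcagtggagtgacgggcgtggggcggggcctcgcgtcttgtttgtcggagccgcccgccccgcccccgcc
Trp53: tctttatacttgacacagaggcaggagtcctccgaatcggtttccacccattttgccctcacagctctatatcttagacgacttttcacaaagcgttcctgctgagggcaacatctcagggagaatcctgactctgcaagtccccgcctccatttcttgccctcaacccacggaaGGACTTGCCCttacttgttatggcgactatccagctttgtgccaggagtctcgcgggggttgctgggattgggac

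Cdkn1a, Sesn1 and Bbc3 have further annotated starts whose windows hold neither motif and are not shown. In the Cdkn1a window shown, the decamers GGACTAGCTT and GAACATGTCT begin 73 and 51 bases before this start and are not adjacent to each other. The window of the other Cdkn1a start lies downstream, at chr17:29093519-29093768 (+). The bases directly after GAACATGTCT match the pattern except at their first letter, and so are not in capitals. The Bax window holds a decamer, AGGCAAGCTT, 201 bases before the start and an E-box 9 bases before it, with a further E-box 35 bases inside the transcript. Bbc3 has an E-box 64 bases before this start, Sesn1 the decamer AAGCTTGTTT 173 bases before it, and Trp53 the decamer GGACTTGCCC 75 bases before it, while the E-box of Trp53 lies 10 bases inside the transcript and outside the sequence shown. Promoters of 300 bases (250 before and 50 after the start) were matched for 32 of the 41 members, 43 promoters in all. Both strands were searched, and in members no E-box overlapped a decamer. The E-box was in 7 of the 43 (16.3%) and in 7.15% of all 32851 promoters. The decamer was in 12 (27.9%) and in 8.36% of all. These 12 promoters belong to 11 members, because overlapping windows of Aen hold the same match. The 7 members with an E-box were Aen, Bax, Bbc3, Fas, Gadd45b, Gadd45g and Trp53. Of these, Aen was called higher, Bax, Bbc3, Gadd45b and Trp53 were called lower, and Fas and Gadd45g were not tested. Aen, whose sequence is not shown, also holds the decamer GGGCTTGTCC. A relation between motif and direction was not tested. A match describes the letters only, and binding was not measured.

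Of the 41 members, 37 had a mean value of at least 10 and were tested. With limma at an adjusted p under 0.05, 25 of them (67.6%) differed between labels, against a background of 52.6% of the 14510 genes tested. In Bmal1-/-, 14 members were higher and 11 lower, where 24.0% of all genes were higher and 28.6% lower, and 12 members did not pass. With equal library totals in place of the TMM scaling, 17 members were higher and 10 lower, against 4200 and 3194 of all genes in place of 3488 and 4151. The changes were small: the median log2 fold change of the members was 0.08 (all genes -0.03), the median absolute log2 fold change was 0.26 (all genes 0.24), and the range was -1.08 to 0.71. Perp alone passed 2-fold, downward, where 7.21% of all genes passed 2-fold (5.75% higher and 1.45% lower). Wild-type and Bmal1-/- values did not overlap for 30 of the 37, where 76.0% of all genes did not overlap. The summed value of all members was 85911 and 85269 in wild-type and 89260 and 91282 in Bmal1-/-. The members that passed thus moved in both directions, mostly by small amounts.

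**Figure D1:**
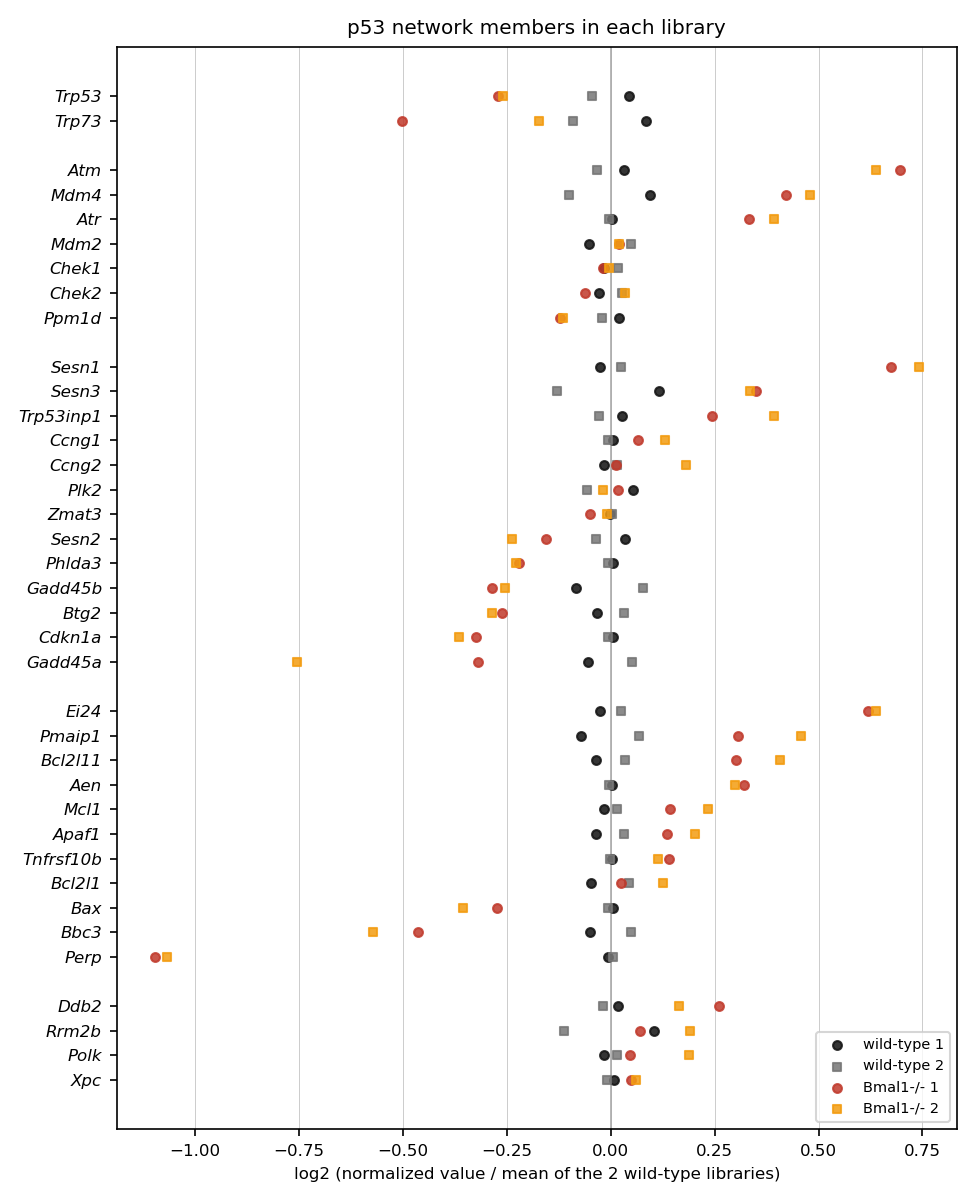
Log2 of the normalised value over the mean of the 2 wild-type libraries (x axis) for each of the 37 members tested (rows, by role); circles and squares are replicates 1 and 2, black and grey for wild-type and red and orange for Bmal1-/-. The largest separations are those of Perp on the left and of Sesn1, Atm and Ei24 on the right, and the replicates of a label lie close together for most members but not for Gadd45a or Trp73.

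In the p53 family, both genes tested were lower in Bmal1-/-. Trp53 (ENSMUSG00000059552, chr11:69393861-69405375 on the plus strand, mm9) had values of 9999 and 9398 in wild-type and 8041 and 8108 in Bmal1-/-. Both Bmal1-/- libraries were below both wild-type libraries, at 83.3% of the wild-type mean. Its log2 fold change was -0.26 ± 0.04 (SE, n = 2 and 2, limma adjusted p = 1.4e-05), and it stayed lower, with an adjusted p of at most 0.042, under every alternative run. Per kilobase of exon Trp53 ranked 4 among the members in wild-type, with 2398 in wild-type and 1996 in Bmal1-/-. Trp73 (ENSMUSG00000029026, chr4:153430358-153514317 on the minus strand), which encodes the relative p73, was far lower in level, with 35.3 per kilobase in wild-type. Its values were 208 and 184 in wild-type and 138 and 174 in Bmal1-/-, so the nearest libraries of the labels were close. The log2 fold change was -0.33 ± 0.13 (adjusted p = 0.033), and the call was lost without Bmal1-/- replicate 1 (-0.17, adjusted p = 0.39) and without wild-type replicate 1 (-0.25, adjusted p = 0.14). Trp63, which encodes p63, had 7 and 0 reads in wild-type and 6 and 5 in Bmal1-/- and was not tested.

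Among the inhibitors of p53 and the damage kinases, 3 of 7 were higher in Bmal1-/- (Atm, Mdm4 and Atr), none was lower, and 4 did not pass. Mdm2 (ENSMUSG00000020184, chr10:117125944-117147814 on the minus strand), the ubiquitin ligase that both inhibits p53 and is induced by it, was at 3121 and 3349 in wild-type and at 3282 and 3278 in Bmal1-/-. The Bmal1-/- libraries lay between the wild-type libraries. Its log2 fold change was 0.02 ± 0.05 (adjusted p = 0.73), with a 95% interval of -0.07 to 0.12. Mdm4, the partner of Mdm2 that masks the activation domain of p53, was at 3310 and 2893 against 4156 and 4325 and rose (0.45 ± 0.05, adjusted p = 4.6e-07). Ppm1d, the phosphatase Wip1 that switches off the damage response, was at 752 and 731 against 681 and 685 (-0.12, adjusted p = 0.12).

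Atm (ENSMUSG00000034218, chr9:53247254-53344845 on the minus strand), the kinase that responds to double-strand breaks, was at 1710 and 1633 in wild-type and at 2708 and 2602 in Bmal1-/-. Its mRNA in Bmal1-/- was 159% of the wild-type mean, with no overlap (log2 fold change 0.67 ± 0.05, adjusted p = 4.6e-10). Atr (ENSMUSG00000032409, chr9:95758016-95852063 on the plus strand), the kinase that responds to stalled replication forks, was at 1583 and 1577 in wild-type and at 1991 and 2077 in Bmal1-/-. Both Bmal1-/- libraries were above both wild-type libraries (0.36 ± 0.05, adjusted p = 3.2e-06). Their effector kinases did not pass: Chek1 was at 2261 and 2315 against 2257 and 2281, with a 95% interval of the log2 fold change of -0.11 to 0.08. Chek2 was at 1808 and 1881 against 1769 and 1889, with an interval of -0.12 to 0.09. The upstream kinases were thus higher while the effector kinases lay within the spread of the libraries, although the difference between those fold changes was not tested.

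Of the 13 growth arrest and growth control targets tested, 4 were higher, 6 were lower and 3 did not pass. Cdkn1a (ENSMUSG00000023067, chr17:29227924-29237667 on the plus strand), which encodes the cyclin-dependent kinase inhibitor p21, was at 6779 and 6731 in wild-type and at 5397 and 5243 in Bmal1-/-. All libraries of one label were apart from those of the other, and Bmal1-/- was at 78.8% of the wild-type mean. The log2 fold change was -0.34 ± 0.04 (adjusted p = 4.1e-07) and stayed between -0.37 and -0.28 under the alternatives. Cdkn1a was the member with rank 2 per kilobase in wild-type, at 3039, and was at 2393 in Bmal1-/-.

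Sesn1 (ENSMUSG00000038332, chr10:41530380-41628230 on the plus strand), a sestrin that restrains mTORC1, had the highest log2 fold change of the members tested, although Atm was above it without wild-type replicate 1 (0.70 against 0.68) and without Bmal1-/- replicate 2 (0.70 against 0.67). It was at 835 and 866 in wild-type and at 1358 and 1422 in Bmal1-/-, with both Bmal1-/- libraries well above wild-type (0.71 ± 0.06, adjusted p = 2.1e-09). The sestrins did not move together. Sesn3 was higher, at 310 and 261 against 364 and 360 (0.35, adjusted p = 0.0042), a call lost when wild-type replicate 2 was left out (adjusted p = 0.058). Sesn2 was lower, at 3486 and 3322 against 3057 and 2886 (-0.20, adjusted p = 0.0012). Without the variance trend the calls of Sesn3 and Sesn2 were lost (adjusted p = 0.073 and 0.084). That of Sesn3 was also lost without the filter (adjusted p = 0.080). Sesn2 had the highest mean value of these 3 genes under both labels.

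Gadd45a (ENSMUSG00000036390, chr6:66985090-66987451 on the minus strand), a stress sensor that acts in arrest and repair, had the lowest log2 fold change among the arrest targets. It was at 79.0 and 85 in wild-type and at 65.8 and 48.6 in Bmal1-/-, so the Bmal1-/- libraries were lower but apart from each other. The log2 fold change was -0.53 ± 0.19 (adjusted p = 0.023), on 51 to 80 reads per library, and the call was lost without wild-type replicate 2 (adjusted p = 0.062) and without Bmal1-/- replicate 2 (-0.31, adjusted p = 0.27). An antisense gene, E230016M11Rik, shares 337 of its 1764 exon bases. Gadd45b was also called lower (-0.27, adjusted p = 0.0031), a call lost with DESeq2 (adjusted p = 0.065), without the variance trend (0.071) and without the filter (0.063). DESeq2 lost the calls of 3 further members, Trp73, Gadd45a and Tnfrsf10b (adjusted p = 0.25, 0.22 and 0.10). Gadd45g, with 5 to 9 reads per library, was not tested.

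The other arrest targets that were lower were Btg2, an antiproliferative cofactor (-0.27, adjusted p = 3.9e-04), and Phlda3, a repressor of Akt (-0.22, adjusted p = 9.3e-04). Trp53inp1, which promotes p53-dependent stress responses and autophagy, was higher (0.32, adjusted p = 8.0e-06). Ccng1, cyclin G1, was called higher at a small size (0.10 ± 0.04, adjusted p = 0.045), and the call was lost without wild-type replicate 2 or either Bmal1-/- library (adjusted p = 0.052 to 0.34). Ccng2 (0.10), the kinase gene Plk2 (0.00) and the RNA-binding protein gene Zmat3 (-0.03) did not pass, and Zmat3 was at 3512 and 3525 against 3398 and 3496.

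**Figure D2:**
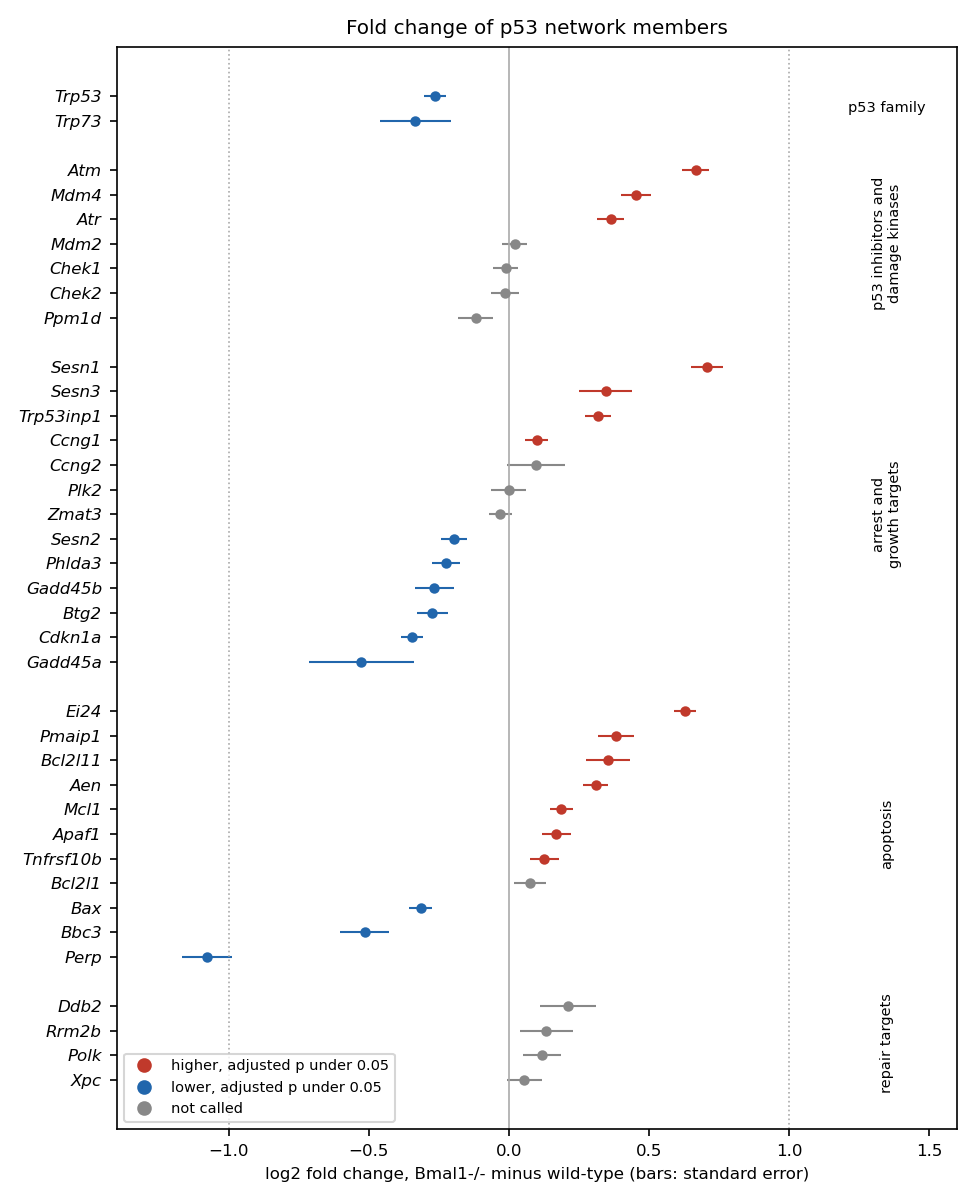
Log2 fold change of Bmal1-/- minus wild-type (x axis, bars are standard errors, 2 libraries per label) for the 37 members tested, by role; red is higher and blue lower at a limma adjusted p under 0.05, grey did not pass, and dotted lines mark 2-fold. Each of the arrest and apoptosis groups holds members on both sides of 0, and Perp, at -1.08, is the member beyond a dotted line.

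Among 11 apoptosis genes tested, 7 were higher, 3 were lower and 1 did not pass. Perp (ENSMUSG00000019851, chr10:18564877-18576879 on the plus strand), a membrane protein of desmosomes and an effector of p53-dependent death, was at 434 and 438 in wild-type and at 204 and 208 in Bmal1-/-. The libraries of a label were nearly equal, and Bmal1-/- was at 47.2% of wild-type. The means were 436 ± 2.56 and 206 ± 2.85 (SD, n = 2 each), and the log2 fold change was -1.08 ± 0.09 (adjusted p = 3.6e-09). It stayed past 2-fold under every alternative, between -1.12 and -1.0.

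Bax, the effector that permeabilises the mitochondrial membrane, was at 6322 and 6269 in wild-type and at 5210 and 4924 in Bmal1-/-, and was lower (-0.31 ± 0.04, adjusted p = 2.5e-06). It was the member with the highest level per kilobase under both labels, 4701 and 3784. Bbc3, which encodes the BH3-only protein Puma, was at 408 and 437 against 306 and 284 and was also lower (-0.51 ± 0.09, adjusted p = 4.2e-05). The other BH3-only genes tested among the members, Pmaip1 and Bcl2l11, moved the opposite way. Pmaip1, encoding Noxa, was at 933 and 1027 against 1212 and 1346 (0.38, adjusted p = 3.7e-05), and Bcl2l11, encoding Bim, was at 375 and 393 against 473 and 509 (0.35, adjusted p = 7.7e-04).

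Of the anti-apoptotic genes, Mcl1 was higher by a small amount (0.19, adjusted p = 5.7e-04), at 8809 and 9002 against 9826 and 10472. The Mcl1 call was lost without the variance trend (adjusted p = 0.084). Bcl2l1, encoding Bcl-xL, did not pass (0.08, adjusted p = 0.26), but passed as higher with equal library totals (0.14, adjusted p = 0.046). Bcl2 had 5 to 9 reads per library and was not tested. Levels per kilobase in wild-type placed Mcl1 at rank 3 of the members, at 2555.

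Ei24 (ENSMUSG00000062762, chr9:36586740-36604938 on the minus strand), an endoplasmic reticulum protein with roles in p53-dependent death and autophagy, had the highest log2 fold change among the apoptosis genes. It was at 5140 and 5323 in wild-type and at 8036 and 8141 in Bmal1-/-, which is 155% of wild-type, with no overlap (0.63 ± 0.04, adjusted p = 5.2e-11). Per kilobase it went from rank 5 in wild-type, at 2326, to 3596. Aen, a nuclease of apoptotic cells, was higher (0.31, adjusted p = 9.7e-06), as was Apaf1, the scaffold of the apoptosome (0.17, adjusted p = 0.0094), while the death receptor gene Tnfrsf10b was called at 0.13 (adjusted p = 0.049). The Tnfrsf10b call was lost whichever of the 4 libraries was left out (adjusted p = 0.078 to 0.22), and that of Apaf1 without Bmal1-/- replicate 2 (adjusted p = 0.13). The death receptor gene Fas had 1 to 8 reads per library and was not tested.

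No repair target passed, though all 4 had log2 fold changes above 0. Ddb2, which recognises ultraviolet lesions, was at 222 and 217 against 263 and 246 (0.21, adjusted p = 0.081), and Xpc, its partner in damage recognition, was at 731 and 723 against 752 and 759 (0.06, adjusted p = 0.48). Polk, a translesion polymerase, was at 651 and 666 against 680 and 750 (0.12, adjusted p = 0.15), and Rrm2b, the p53-induced ribonucleotide reductase subunit, at 317 and 273 against 310 and 337 (0.13, adjusted p = 0.25). The groups overlapped for Rrm2b and not for the other 3 genes. Rrm2b passed without wild-type replicate 1 (0.24, adjusted p = 0.0496), and with equal library totals Ddb2 (0.27, adjusted p = 0.028) and Polk (0.18, adjusted p = 0.033) passed. Ddb2 shares 652 of its 2736 exon bases with Acp2 on the other strand, and the strand setting of the counting is not given in the sources used here.

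**Figure D3:**
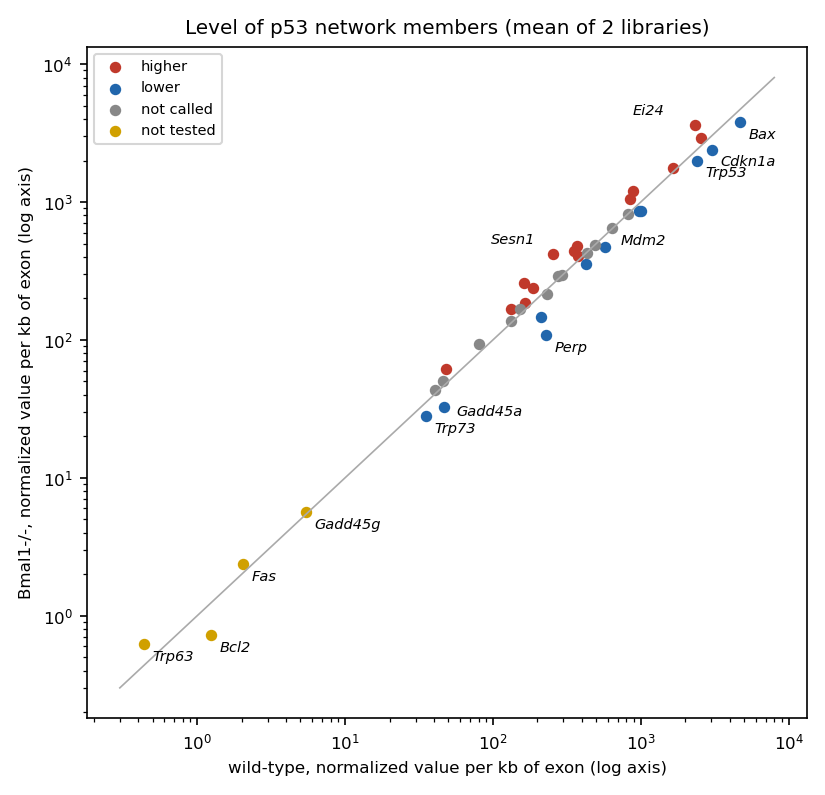
Mean normalised value per kilobase of exon in Bmal1-/- (y axis) against wild-type (x axis), both log axes, for all 41 members; colours mark higher (red), lower (blue), not called (grey) and not tested (yellow) genes, and the line is equality. Members span more than 3 orders of magnitude in level, with Bax, Cdkn1a, Mcl1, Trp53 and Ei24 at the top and Trp63, Bcl2, Fas and Gadd45g at the bottom.

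Fold change moved with the summed exon length of a gene, across all genes and across members. Over 5 equal groups of all genes tested by length, the median log2 fold change went from -0.15 (39 to 1753 bases) to -0.12, -0.06, 0.01 and 0.13 (5936 to 116828 bases). The median of the 3 members in the shortest group (Bax, Gadd45b and Phlda3) was -0.27, and that of the 7 members in the longest was 0.32. Spearman's rho between length and log2 fold change was 0.46 over the 37 members and 0.22 over the 14510 genes, as a description across genes that share the 4 libraries. Between replicates rho was -0.19 in wild-type and 0.07 in Bmal1-/-. With the length trend of all genes removed, an alternative chosen after seeing the data, 23 members passed, 13 higher and 10 lower, 21 of them among the 25 above. Perp (-1.0), Sesn1 (0.71), Ei24 (0.69), Trp53 (-0.29), Cdkn1a (-0.29) and Bax (-0.20) kept their calls, and Atm (0.42) and Atr (0.17) kept theirs at a smaller size. Gadd45a, Gadd45b, Bcl2l11 and Apaf1 no longer passed (adjusted p = 0.0505, 0.058, 0.071 and 0.49), Apaf1 with the opposite sign (-0.05), and Zmat3 (-0.21, adjusted p = 1.1e-04) and Ddb2 (0.25, adjusted p = 0.043) did.

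**Figure D4:**
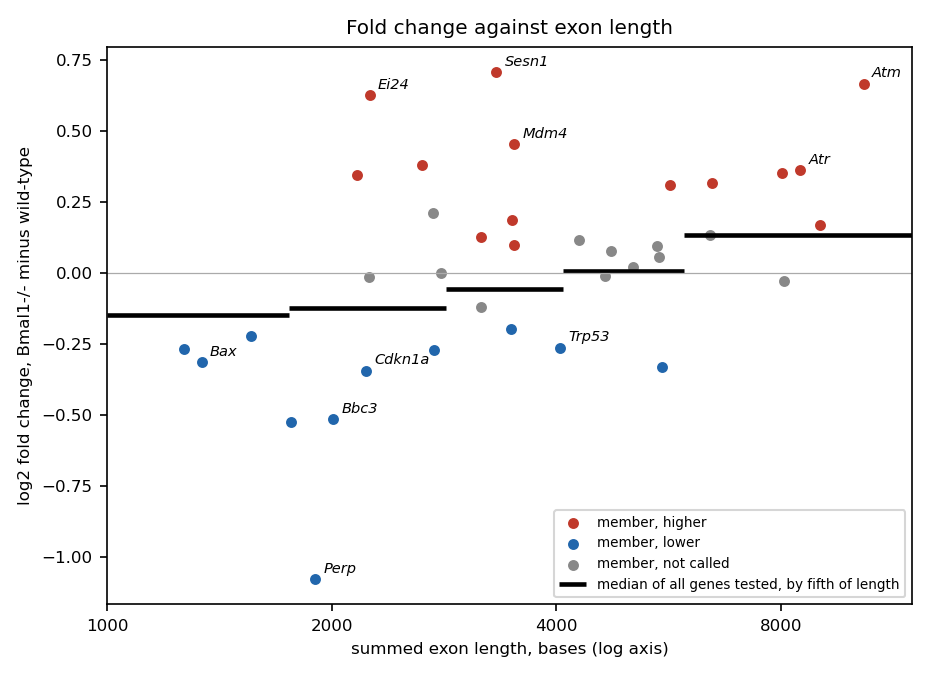
Log2 fold change, Bmal1-/- minus wild-type (y axis), against summed exon length in bases (x axis, log, limited to the range of the members) for the 37 members tested; black bars are the medians of all genes tested in 5 groups by length. The bars step up from -0.15 to 0.13, while Perp, Sesn1 and Ei24 lie far from the bar of their length.

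Of the wider pathway, genes outside the 41 members were counted in lists written from general knowledge. Among 39 tested other p53 targets, 4 were higher and 19 lower, with 16 not passing and a median log2 fold change of -0.21. Of all genes tested, 24.0% were higher and 28.6% lower. In this list 2 genes fell past 2-fold, and Sfn, the 14-3-3 sigma arrest gene, was among them, at 2309 and 2313 against 1112 and 1156 (-1.03, adjusted p = 8.1e-13). The highest of the list was the phosphatase gene Ptprv, at 27.4 and 29.7 against 46.0 and 44.8 (0.65, adjusted p = 0.024). The count of lower genes in this list was 12 with DESeq2.

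Of 26 other regulators of p53, 7 were higher and 11 lower. Cdkn2a, among whose products is the Mdm2 inhibitor Arf, had the lowest log2 fold change, at 490 and 513 against 337 and 344 (-0.56, adjusted p = 5.8e-06). Its value is counted per gene and does not separate its transcripts. Ppp1r13b, encoding the p53 cofactor Aspp1, had the highest, at 446 and 426 against 615 and 627 (0.51, adjusted p = 5.4e-06). Of 24 other apoptosis genes tested, 5 were higher and 7 lower, from Bad and Bak1 (both -0.54) to Casp8 (0.65, adjusted p = 0.0051). Of 62 tested other damage response and repair genes, 15 were higher and 19 lower, from Nbn, of the break sensor complex (-0.49, adjusted p = 1.6e-06), to Ercc4, the nuclease subunit of nucleotide excision repair, which was at 984 and 1060 against 1776 and 1762 (0.79, adjusted p = 2e-10). With equal library totals the higher and lower counts were 12 and 10 among regulators, 7 and 5 among apoptosis genes and 23 and 12 among repair genes. The shares called with the TMM scaling, 59.0% to 69.2% for targets and regulators and 50% to 54.8% for the others, stand beside the 52.6% of all genes.

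**Figure D5:**
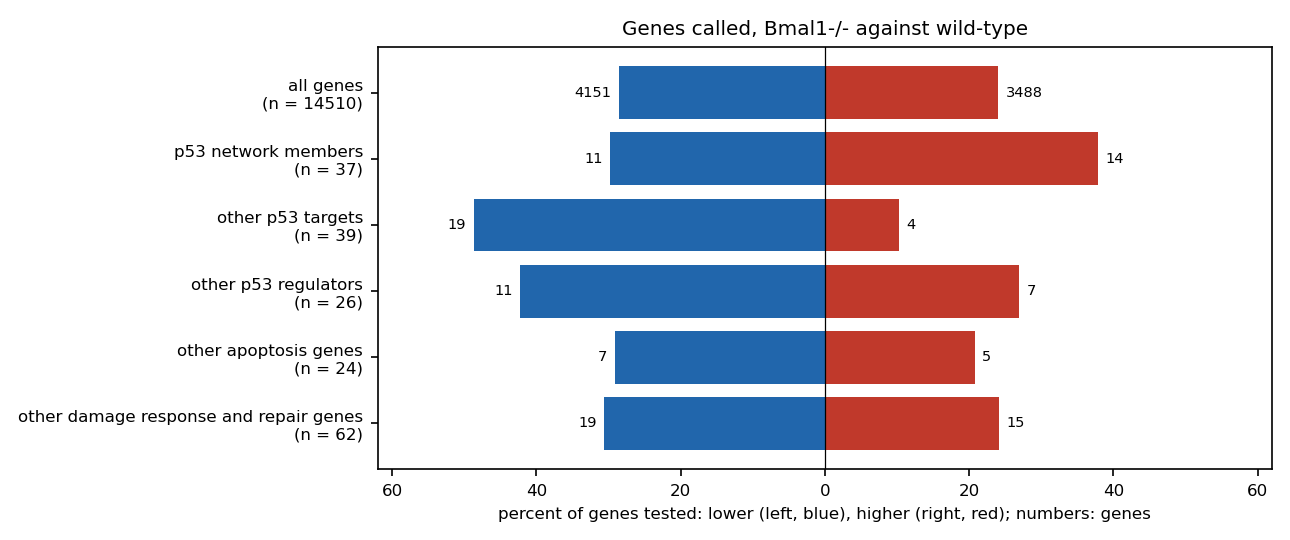
Percent of tested genes that were lower (left, blue) or higher (right, red) in Bmal1-/- at a limma adjusted p under 0.05, for all genes, the p53 network members and 4 further lists; numbers are genes. The members divide into 14 higher and 11 lower, and the other p53 targets into 4 higher and 19 lower.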

How the data were processed

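The 41 members and the gene lists were chosen with earlier results of these data known. Paired 75-bp reads were processed by the authors with bcl2fastq 2.18.0.12, cutadapt 1.9.1 and STAR 2.5.2b (mm9), per the submitters' notes, counted per Ensembl gene by a tool not given in the sources used here, and scaled by TMM in NOISeq. The deposited values are this normalized signal. Dividing by the smallest step of a library gave whole reads for 100% of values (tolerance 0.01). Columns of no sample numbered 0.

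For genes whose mean reached 10, limma 3.58.1 (trend) was run on log2(value + 1), Benjamini-Hochberg adjusted over 14510 genes. This log2 scale understates changes of low genes. The call was an adjusted p under 0.05, and past 2-fold also an absolute log2 fold change above 1, the study's fold rule. edgeR 4.0.16 (quasi-likelihood) and DESeq2 1.42.0 ran on the recovered reads in R 4.3.3 as alternatives. The scripts were tested on simulated data. The replicates are said to be biological, and the sample titles number them as Exp 1 and Exp 2 under both labels. Nothing names separate cultures, so p-values measure the spread between these libraries, which differed by more than counting noise. In limma the variance of a gene is drawn largely from other genes (2 residual and 18.1 prior degrees of freedom). The standard errors, intervals and p-values of limma thus do not rest on the replicates of that gene alone. Trp53, Mdm2, Cdkn1a, members past 2-fold and the called extremes of each role were described in full. Per-library values of further members, Bax and Bbc3 among them, were added after their values were seen. Exon lengths came from GENCODE M1 (mm9). Trp53 and Mdm4 have annotated pseudogenes that could share reads. A called gene of the other p53 targets is not reported here by name.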

Additional observations from a re-analysis of the deposited data

How the results depend on the processing

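Of the 37 members tested, 17 kept their direction and their side of the threshold in every alternative, and 19 in every alternative that used all libraries. With the replicate number as a block, 37 of 37 did, with 14 members higher and 11 lower; deviations of same-numbered libraries had a correlation of -0.02, so the numbers were not taken as pairs. edgeR called 25 members, all shared with limma, and DESeq2 called 21, all shared. Without the trend there were 5060 of all genes called, 9 members higher and 7 lower, 2 other targets higher, 3 regulators higher and 6 lower, 9 repair genes higher and 6 lower. With equal library totals there were 12 regulators higher, and 23 repair genes higher and 12 lower. DESeq2 gave 2 other targets higher and 12 lower, 3 other apoptosis genes higher and 11 repair genes lower. A mean of at least 100 gave 3 other apoptosis genes higher. Removing the length trend gave 8 repair genes higher and 25 lower, beside 2934 higher and 4560 lower of all genes. The 9 members that lost their call without the trend were Trp73, Gadd45a, Gadd45b, Sesn2, Sesn3, Ccng1, Mcl1, Tnfrsf10b and Apaf1. Without the filter on low values, 10 members were higher and 8 lower. The 7 calls lost there were those of Trp73, Gadd45a, Gadd45b, Sesn3, Ccng1, Tnfrsf10b and Apaf1. The cause of these shifts was not tested.

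The median log2 fold change of the members was 0.055 without a filter, 0.086 at a mean of at least 100, 0.091 with median-ratio size factors, 0.14 with equal totals, 0.10 with quantile normalization, 0.10 with edgeR, 0.11 with DESeq2 and 0.012 with the length trend removed. Leaving out each library in turn gave medians of 0.027 to 0.11, 11 to 14 members higher, 10 lower, 1 past 2-fold, 2 to 5 other targets higher and 14 to 20 lower, 5 to 8 regulators higher and 10 to 11 lower, 4 to 5 other apoptosis genes higher and 6 to 7 lower, 13 to 16 repair genes higher and 11 to 19 lower, 5821 to 7560 of all genes, and an Arntl log2 fold change of -0.35 to -0.24. The 11 repair genes were without Bmal1-/- replicate 1.

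Signs turned for members near 0. With median-ratio size factors, equal totals, quantile normalization, edgeR and DESeq2 in that order, the log2 fold change of Chek1 was 0.0035, 0.049, 0.037, 0.012 and 0.019, and that of Chek2 was 0.0025, 0.048, 0.030, 0.012 and 0.019. Zmat3 was 0.031 with equal totals, 0.016 with quantile normalization and 0.0015 with DESeq2. With the length trend removed Mdm2 was -0.048, Chek2 0.046, Apaf1 -0.045 and Xpc -0.031. Over the fits that each left out 1 library, Mdm2 ranged from -0.030 to 0.072 (below 0 without wild-type replicate 1) and Chek1 from -0.029 to 0.0053 (above 0 without wild-type replicate 2). Chek2 ranged from -0.060 to 0.035 (above 0 without Bmal1-/- replicate 1 or wild-type replicate 2) and Plk2 from -0.055 to 0.055 (below 0 without Bmal1-/- replicate 1 or wild-type replicate 2). In fits that leave 1 library in a label, that library is assumed to vary like the others. The 4 members below the filter did not pass when the filter was dropped (adjusted p = 0.17 to 0.99).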
